A study of Rattus norvegicus with 9 samples.

Results

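The tetraspan genes of the L6 family, Tm4sf1, Tm4sf4, Tm4sf5 and Tm4sf20, were followed by their symbols in the 2 deposited tables of the series, where they are 4 of 17120 genes kept. All 4 had a mean of at least 1 FPKM in both tables, the level from which genes were tested; FPKM count sequenced fragments relative to transcript length and to the total mapped in a library. The members were chosen by the FPKM of these same libraries, with the results of both comparisons known, so their values are a description and carry no test. The samples are total RNA of ileum, the end of the small bowel, from Otsuka Long-Evans Tokushima fatty rats, which grow obese and then diabetic. All groups share this strain and its missing receptor for cholecystokinin. The ileum was removed 1 month after surgery in 3 groups of 3: Roux-en-Y gastric bypass (RYGB) with FDG decreased, RYGB with FDG increased, and a sham operation. FDG is taken as fluorodeoxyglucose, a tracer of glucose uptake; the labels do not spell it out, nor do they give the age or sex of the rats or say whether replicates are separate animals, so spreads may be technical. The series asks how RYGB affects the small intestine, and its tables set FDG-decreased against FDG-increased RYGB ileum, and FDG-increased RYGB ileum against sham ileum.

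L6 proteins cross the membrane 4 times and resemble the tetraspanins in outline without belonging to that family. They sit at the cell surface and on internal membranes, where they gather integrins, receptors and transporters. Tm4sf4 was first described as a protein of intestine and liver. Tm4sf5 is studied in liver cells, where the human protein takes part in sensing arginine at the lysosome. The human Tm4sf20 protein sits in the endoplasmic reticulum and holds back cleavage of the transcription factor Creb3l1, and Tm4sf1 is best known from blood vessel lining and tumour cells.

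Tm4sf4 and Tm4sf5 are the members that lay apart between the RYGB groups, and the promoters of these 2 genes are shown for that reason. The windows run from 250 bases before to 50 bases after the RefSeq start on build GRCr8, a build other than the one listed for the deposited tables. That of Tm4sf4 lies at chr2:143755811-143756110 on the plus strand and that of Tm4sf5 at chr10:55717764-55718063 on the plus strand. Capitals mark matches to a short motif of the hepatocyte and gut factor HNF1, GTTAAT, on either strand.
Tm4sf4: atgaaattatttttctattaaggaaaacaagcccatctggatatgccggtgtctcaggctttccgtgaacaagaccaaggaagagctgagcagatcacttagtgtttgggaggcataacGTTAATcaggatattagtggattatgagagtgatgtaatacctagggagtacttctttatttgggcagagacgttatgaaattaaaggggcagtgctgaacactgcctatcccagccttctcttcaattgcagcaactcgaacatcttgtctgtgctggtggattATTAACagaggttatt
Tm4sf5: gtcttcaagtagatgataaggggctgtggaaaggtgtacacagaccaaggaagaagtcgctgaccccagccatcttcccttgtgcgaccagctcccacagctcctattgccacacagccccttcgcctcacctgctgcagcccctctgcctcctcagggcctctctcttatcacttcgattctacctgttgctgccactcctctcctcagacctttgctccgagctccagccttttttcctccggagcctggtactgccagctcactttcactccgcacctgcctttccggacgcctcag
The Tm4sf4 window holds 2 matches, and the Tm4sf5 window holds 0. Of all 33469 promoters of the same length, 7.45% hold this motif. The Tm4sf4 window has 41.7% G and C bases and the Tm4sf5 window 57.7%. Motifs of GATA factors (AGATAA), CDX (TTTATG), HNF4 (CAAAGTCCA) and AP-1 (TGANTCA) and the TATA box (TATAAA) were searched on both strands as well. They occur in 11.6%, 12.7%, 0.391%, 7.33% and 14.2% of all promoters, in that order. None of these 5 motifs was found in the windows of Tm4sf4, Tm4sf5 or Tm4sf1, which says only that these letters are not there. Other spellings of these motifs were not searched. TGATAA, which differs from the GATA motif in its first letter, does stand in the printed Tm4sf5 window. Its share among all promoters was not counted, so nothing is read from it.

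The 12 library columns hold 10 distinct libraries. FDG-increased columns 2 and 3 of the sham table equal FDG-increased replicates 1 and 2 of the RYGB table times 1.02, for 99.98% and 99.94% of genes above 0 within 1%, so 4 FDG-increased libraries stand against 3 in the labels. The sum of FPKM lay between 465697 and 864511 per library; read depth is unknown. Sham replicate 1, labelled ileum, stood apart: the ileal bile acid binding protein Fabp6 was at 22.6 FPKM there, against 8375 and 11347 FPKM in sham replicates 2 and 3, and lactase (Lct), an enzyme found mostly in upper intestine, at 253, against 8.60 and 0.317 FPKM. For each member a difference or ratio against sham ileum is therefore given with and without it. Other results with sham ileum include it unless stated.

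Tm4sf20, Tm4sf4 and Tm4sf5 were abundant in every library, and Tm4sf1 was low. In FPKM, which allow genes to be compared per length, Tm4sf20 lay above 96.7% to 98.2% of all genes in each library. Tm4sf4 lay above 84.5% to 98.8% of genes, and Tm4sf5 above 90.9% to 98.9%. Tm4sf1 lay near the middle, above 43.9% to 61.7% of genes. A relative, Tm4sf19, was listed at 0 in all FDG-increased libraries and reached at most 0.560 FPKM elsewhere.

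**Figure D1:**
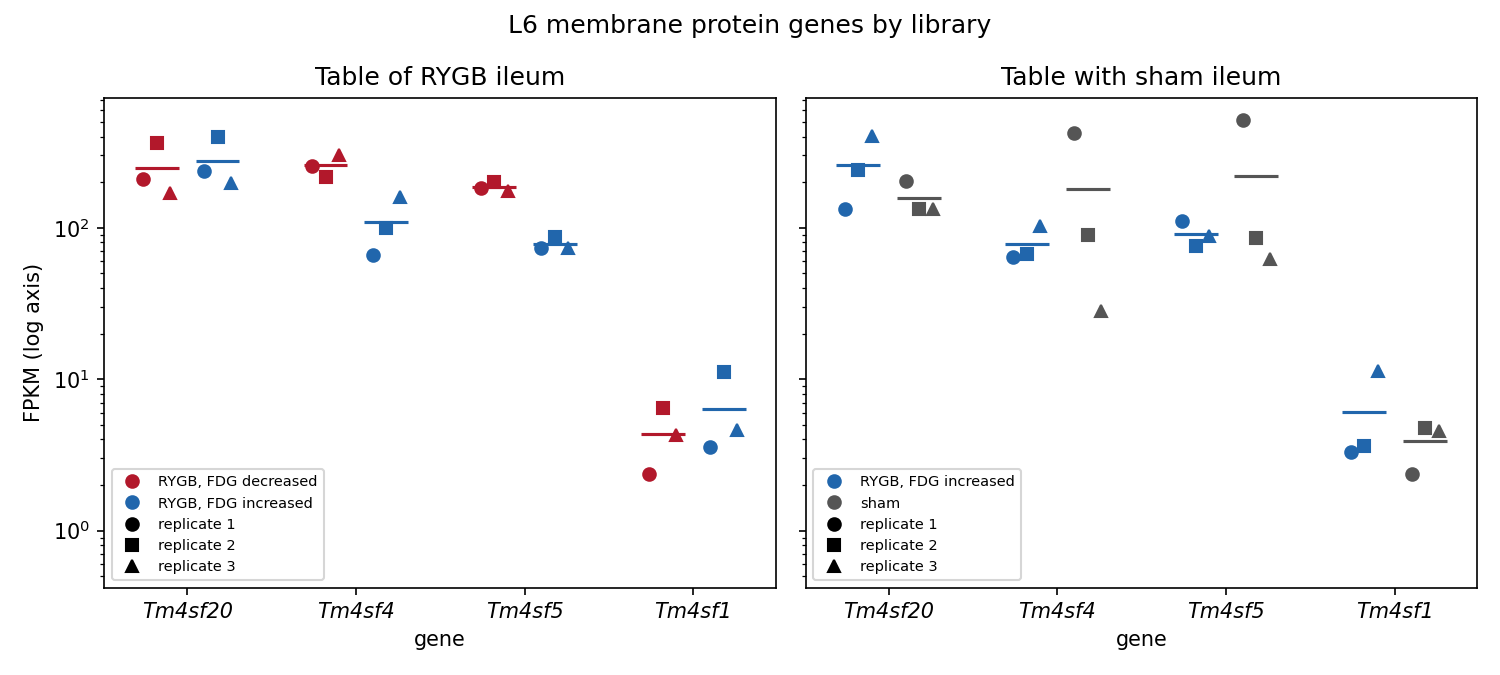
FPKM (log axis) of the 4 genes in each library, for the RYGB table on the left and the sham table on the right; symbols are replicates, colours are groups and short lines are group means. Tm4sf4 and Tm4sf5 do not overlap between FDG-decreased and FDG-increased RYGB ileum, and sham replicate 1 lies far above the other libraries of the sham table for both.

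Between the RYGB groups, Tm4sf4 and Tm4sf5 were each more than 2-fold higher in FDG-decreased ileum, while Tm4sf20 and Tm4sf1 were lower in every same-numbered pair. Tm4sf4 stood at 257, 217 and 303 FPKM in FDG-decreased replicates 1 to 3, against 65.8, 100.3 and 159.7 FPKM in FDG-increased replicates 1 to 3. The groups did not overlap, with FDG-increased replicate 3 the closest to the FDG-decreased range. The means were 259 ± 43.2 FPKM in FDG-decreased and 108.6 ± 47.5 FPKM in FDG-increased ileum (SD, n = 3 each), a ratio of 2.38. On the log2(FPKM + 1) scale used for all log2 differences here, which understates low genes, Tm4sf4 was 1.32 higher (SE 0.42). Within pairs 1, 2 and 3 the ratio of its levels was 3.90, 2.16 and 1.90, so the size of the difference varied about 2-fold.

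Tm4sf5 was steadier. It stood at 184, 201 and 175 FPKM in FDG-decreased replicates 1 to 3, against 73.9, 86.5 and 74.0 FPKM in FDG-increased replicates 1 to 3. Again no library of 1 group reached the range of the other, and libraries within a group lay close together. Its means were 187 ± 13.0 FPKM in FDG-decreased and 78.2 ± 7.22 FPKM in FDG-increased ileum (SD, n = 3 each), a ratio of 2.39. The log2 difference was 1.25 (SE 0.31). Pairs 1, 2 and 3 gave ratios of 2.49, 2.32 and 2.37, and the pair differences had an SD of only 0.05 on the log2 scale, against 0.55 for Tm4sf4.

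Tm4sf20 varied widely between samples of the same group but little within pairs. Its levels were 211, 363 and 170.4 FPKM in FDG-decreased replicates 1 to 3, against 237, 398 and 198 FPKM in FDG-increased replicates 1 to 3. Replicate 2 was the highest in both groups and the groups overlapped almost fully. The sum of FPKM over all genes ranked the libraries of each group in the same order. It was 616365, 827636 and 475536 in FDG-decreased replicates 1 to 3, and 610658, 847267 and 497325 in FDG-increased replicates 1 to 3. The means were 248 ± 101.3 FPKM in FDG-decreased and 278 ± 106.0 FPKM in FDG-increased ileum (SD, n = 3 each), with a log2 difference of -0.17 (SE 0.45). The SE was 0.31 with the libraries set to the same median and 0.25 with quantile normalization, so part of the spread was shared by whole libraries. In pairs 1, 2 and 3 the FDG-decreased level was 0.892, 0.911 and 0.860 times the FDG-increased level. Without FDG-decreased replicate 3 or without FDG-increased replicate 2 the unpaired log2 difference was 0.061 and 0.12, and thus turned.

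Tm4sf1, at a far lower level, was likewise lower in FDG-decreased ileum in each pair, though its replicates ranked in another order than those of Tm4sf20. It stood at 2.35, 6.42 and 4.27 FPKM in FDG-decreased replicates 1 to 3, against 3.55, 11.1 and 4.58 FPKM in FDG-increased replicates 1 to 3. Replicate 2 was highest in both groups, as it was for the sum of FPKM, and the ranges overlapped. The log2 difference was -0.41 (SE 0.45), and 0.011 without FDG-increased replicate 2. Markers of blood vessel lining, where Tm4sf1 is best known, had summed levels of 100.7 to 139.8 FPKM in FDG-decreased and 73.2 to 148.7 FPKM in FDG-increased ileum. Of their 13 genes 12 were measured, 11 of them higher and 1 lower in FDG-decreased ileum with a median log2 difference of 0.12, beside 0.02 for all genes; 0 were called by limma, with 0 at an unadjusted p under 0.05, and Robo4 was listed at 0 throughout; their part in the levels of Tm4sf1 was not tested.

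**Figure D2:**
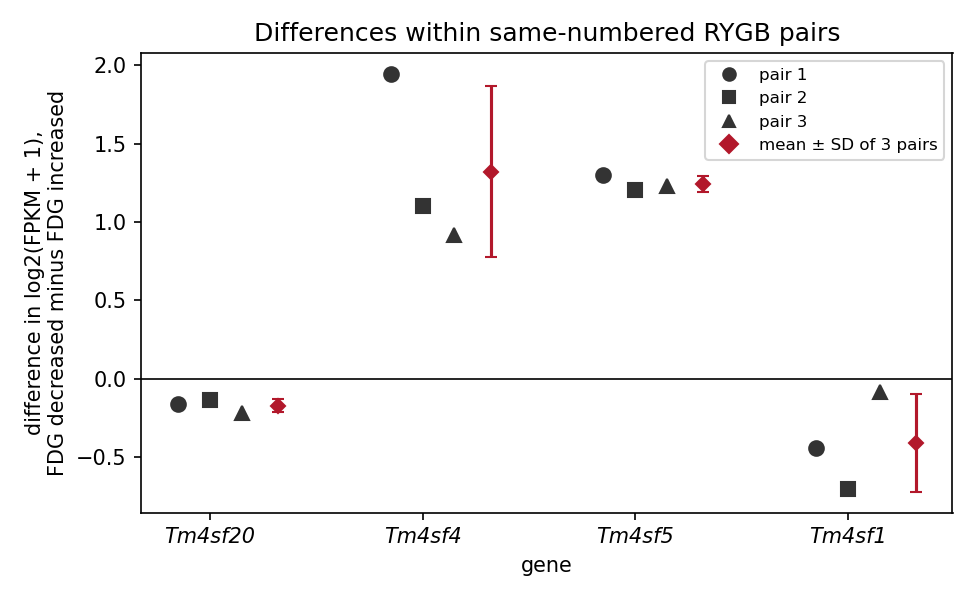
Differences in log2(FPKM + 1), FDG-decreased minus FDG-increased, within the 3 same-numbered RYGB pairs, with the mean and SD of the pairs as a diamond with bars. The Tm4sf5 pairs lie between 1.20 and 1.30 and the Tm4sf20 pairs between -0.22 and -0.13, while the Tm4sf4 pairs spread from 0.92 to 1.95.

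Same-numbered libraries of the RYGB table deviated together from their group means, so the call depends on whether pairs are modelled. Without pairs, limma with Benjamini-Hochberg adjustment called 0 of 10739 genes (0%), with 110 at an unadjusted p under 0.05, and 0 of the 4 members. With the replicate number as a block, limma called 122 genes, 1.14% of those tested, 48 of them higher (0.447%), and Tm4sf4 and Tm4sf5 were among those. With the block the SE was 0.19 for Tm4sf4 and 0.13 for Tm4sf5. Without pair 1 or without pair 2 the blocked limma fit called Tm4sf5 alone among the members, and 0.327% and 3.91% of all genes, in that order. Without pair 3 it called both members and 3.2% of all genes. With a pair left out, little spread is left for a single gene, so these calls lean on the variance pooled over all genes. Across all genes, 1.95% had all 3 FDG-decreased libraries above all 3 FDG-increased ones, as these 2 members did. All 3 pairs were lower for 12.7% of genes, as for Tm4sf20 and Tm4sf1. These are the contrasts on which the family was picked, so nothing is read from its counts.

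The ratios of Tm4sf20 to Tm4sf4 and to Tm4sf5 were lower in FDG-decreased ileum in each same-numbered pair of the RYGB table. Tm4sf20 stood at 0.823, 1.67 and 0.562 times the level of Tm4sf4 in FDG-decreased replicates 1 to 3, against 3.59, 3.97 and 1.241 times in FDG-increased replicates 1 to 3. Tm4sf20 was thus the higher of both genes in all 3 FDG-increased libraries and in FDG-decreased replicate 2 alone. By mean level the order was Tm4sf4, Tm4sf20, Tm4sf5 in FDG-decreased ileum, where the range of Tm4sf20 enclosed that of Tm4sf4. In FDG-increased ileum it was Tm4sf20, Tm4sf4, Tm4sf5, and the ranges of Tm4sf4 and Tm4sf5 overlapped. Tm4sf20 against Tm4sf5 gave 1.15, 1.81 and 0.973 in FDG-decreased and 3.20, 4.601 and 2.68 in FDG-increased ileum, with no overlap in this table. The FDG-increased library found in the sham table alone, its column 1, had a Tm4sf20 to Tm4sf5 ratio of 1.21, inside the FDG-decreased range, and a Tm4sf20 to Tm4sf4 ratio of 2.10. In the RYGB table Tm4sf4 and Tm4sf5 kept closer to each other, at ratios of 1.40, 1.08 and 1.73 in FDG-decreased and 0.890, 1.16 and 2.16 in FDG-increased ileum.

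The summed levels of enterocyte markers and of upper intestine genes were higher in FDG-decreased ileum in all 3 pairs. The 13 measured enterocyte markers had summed levels of 7437 to 19843 FPKM in FDG-decreased and 5418 to 16224 FPKM in FDG-increased ileum, and 9 of them had a higher and 4 a lower mean log2 level. Their sum in FDG-decreased ileum was 1.27, 1.22 and 1.37 times that in FDG-increased ileum in pairs 1, 2 and 3. Of these markers limma called 0 without the block and 2 with it, Apob, a protein of fat-carrying particles, and Alpi, an alkaline phosphatase, both higher. In these limma fits 0 without and 7 with the block had an unadjusted p under 0.05. The largest part of the enterocyte sum was Fabp2, at 7608, 9265 and 2984 FPKM in FDG-decreased against 4619, 6646 and 1734 FPKM in FDG-increased replicates 1 to 3. The 4 lower markers were Epcam, Cdx2, Krt20 and Krt8, and Epcam and Krt20 were lower in all 3 pairs. The 7 measured upper intestine genes summed to 3529 to 7812 FPKM in FDG-decreased and 1381 to 5319 FPKM in FDG-increased ileum, with pair ratios of 1.64, 1.16 and 2.56; 5 were higher and 2 lower. Most of that sum was the fatty acid binding protein Fabp1, at 7765, 6083 and 3457 FPKM in FDG-decreased against 4744, 5249 and 1344 FPKM in FDG-increased replicates 1 to 3. Among them limma called 0 without the block and 2 with it, Lct and the hormone Gip, both higher; 3 without and 4 with the block had an unadjusted p under 0.05. The summed levels of the 5 measured genes of ileal bile acid uptake had pair ratios of 0.831, 0.799 and 0.735. Most of that sum was Fabp6, whose own pair ratios were 0.836, 0.789 and 0.748. Of the 5 genes 1 was higher, Nr0b2, and 4 were lower. With and without the block limma called 0 of them, and 3 and 0 had an unadjusted p under 0.05. In bulk tissue fewer cells of a type and less RNA per cell cannot be told apart, and the part of these genes in the levels of Tm4sf4 and Tm4sf5 was not tested.

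Lct and Gata4, the transcription factor that marks the upper intestine, can be set beside the members library by library. Lct stood at 8.40, 4.36 and 1.39 FPKM in FDG-decreased replicates 1 to 3, against 0.521, 0.683 and 0.128 FPKM in FDG-increased replicates 1 to 3. Gata4 stood at 6.16, 1.01 and 26.4 FPKM in FDG-decreased replicates 1 to 3, against 0, 0.0410 and 0.590 FPKM in FDG-increased replicates 1 to 3. Both were higher in FDG-decreased ileum without overlap, as Tm4sf4 and Tm4sf5 were. Within each RYGB group of this table Tm4sf4 and Gata4 ranked the libraries in the same order, which Tm4sf5 and Lct did not follow. In FDG-increased ileum the Gata4 order rests on 0 to 0.590 FPKM, too low to rank libraries by. In sham table columns of FDG-increased ileum the order of Tm4sf4 and Gata4 differed. The share of all genes with the order of Tm4sf4 was not counted, so nothing is read from these orders. Slc10a2, the ileal bile acid transporter, went its own way at 86.6, 581 and 23.2 FPKM in FDG-decreased against 185, 567 and 100.9 FPKM in FDG-increased replicates 1 to 3.

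Against sham ileum, the log2 differences of Tm4sf4 and Tm4sf5 moved widely with single sham libraries and turned without sham replicate 1. In the sham table Tm4sf4 stood at 63.7, 67.4 and 102.4 FPKM in FDG-increased columns 1 to 3, against 423, 89.9 and 28.2 FPKM in sham replicates 1 to 3. The sham libraries spanned a 15.01-fold range that enclosed all FDG-increased libraries. Tm4sf4 averaged 77.8 ± 21.3 FPKM in FDG-increased and 180.4 ± 212 FPKM in sham ileum (SD, n = 3 each). Its log2 difference was -0.43 (SE 0.81), 0.58 without sham replicate 1 and -1.35 without sham replicate 3. Tm4sf5 stood at 110.7, 75.6 and 88.3 FPKM in FDG-increased columns 1 to 3, against 513, 85.9 and 62.3 FPKM in sham replicates 1 to 3. Sham replicate 1 was again far above all others, and the remaining sham libraries overlapped the FDG-increased range. Its log2 difference was -0.63 (SE 0.70), 0.30 without sham replicate 1 and -1.21 without sham replicate 3.

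Tm4sf20 did not single out sham replicate 1 in this way. It stood at 133.8, 242 and 406 FPKM in FDG-increased columns 1 to 3, against 202, 133.0 and 133.1 FPKM in sham replicates 1 to 3. FDG-increased columns 2 and 3 lay above all sham libraries, and column 1 lay among them. The log2 difference was 0.62 (SE 0.44), 0.82 without sham replicate 1 and 0.23 without FDG-increased column 3. Tm4sf1 stood at 3.31, 3.63 and 11.3 FPKM in FDG-increased columns 1 to 3, against 2.38, 4.78 and 4.52 FPKM in sham replicates 1 to 3. Only FDG-increased column 3 lay above the sham range. Its log2 difference was 0.40 (SE 0.42), 0.15 without sham replicate 1 and -0.091 without FDG-increased column 3.

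In this comparison limma with Benjamini-Hochberg adjustment called 4 of 10801 genes (0.037%) and 0 of the 4 members, with 847 genes at an unadjusted p under 0.05. No member had groups that did not overlap, against 10.7% of all genes with FDG-increased ileum above and 4.44% below. The median log2 difference of all genes was 0.13, and the 0.62 of Tm4sf20 is to be read against that shift. With the libraries set to the same median it was 0.49, and with quantile normalization 0.21. The labels place all sham libraries in lane 7. With lane 7 alone, the log2 difference was -0.68 for Tm4sf4, -0.34 for Tm4sf5, -0.19 for Tm4sf20 and -0.14 for Tm4sf1 if FDG-increased column 1 is the lane 7 library, as its name gives. It was -0.61, -0.88, 0.66 and -0.040, in the same order of genes, if column 2 is, as the values shared with the other table give. Both of these fits assume that a single FDG-increased library has the spread of sham ileum.

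Among the sham libraries the order of Tm4sf4 and Tm4sf5 matched that of Lct and Gata4. How large a share of all genes has this order was not counted. Lct stood at 253, 8.60 and 0.317 FPKM and Gata4 at 59.8, 9.82 and 0.0853 FPKM in sham replicates 1 to 3. Fabp6 ran the other way, at 22.6, 8375 and 11347 FPKM. The 7 measured upper intestine genes summed to 10739, 2292 and 2346 FPKM, high in sham replicate 1 and near equal in the others. Most of that sum was Fabp1, at 10308.5, 2220 and 2308 FPKM, so it hides the lower genes. Gip, for 1, stood at 81.2, 10.7 and 3.70 FPKM, and like Lct and Gata4 was higher in sham replicate 2 than in 3. Cyb561 and Slc40a1 of the same list had this order too, but over a much narrower range. Cybrd1, also of this list, did not follow it. It was lowest in sham replicate 1, at 11.51, 20.57 and 17.53 FPKM in sham replicates 1 to 3. Tm4sf4 and Tm4sf5 spanned a 15.01-fold and an 8.23-fold range of sham libraries, while Tm4sf20 spanned 1.52-fold. The part of the place of sampling along the intestine was not tested.

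**Figure D3:**
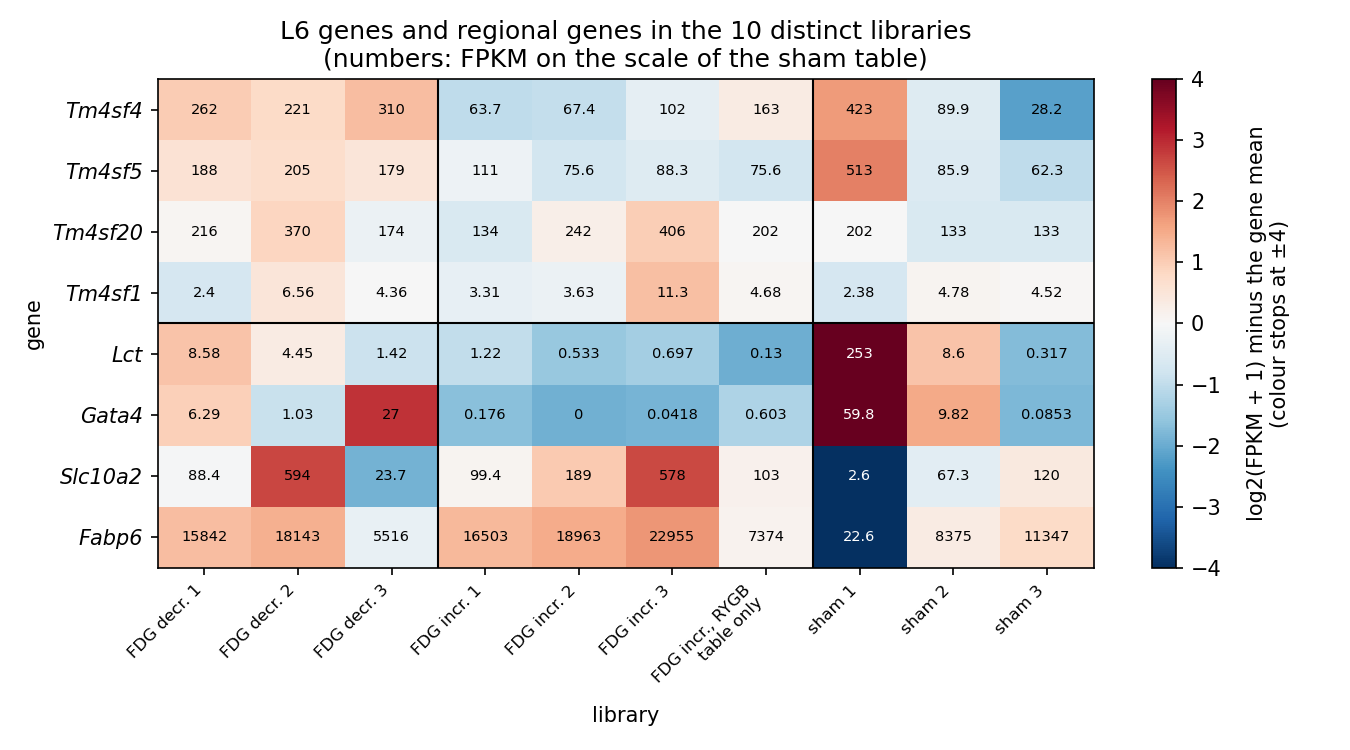
The 4 L6 genes and 4 regional genes in the 10 distinct libraries, with FPKM on the scale of the sham table as numbers and log2(FPKM + 1) minus the gene's mean as colour. Tm4sf4 and Tm4sf5 are highest in sham replicate 1, followed by the 3 FDG-decreased libraries. Sham replicate 1 also has the highest Lct and Gata4 and the lowest Slc10a2 and Fabp6.

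FDG-decreased RYGB ileum and sham ileum are not in the same table. Their levels were set side by side by multiplying the RYGB table by 1.0217, the factor of the shared libraries, without a test. Tm4sf4 then stood at 262, 221 and 309.6 FPKM in FDG-decreased replicates 1 to 3, against 423, 89.9 and 28.2 FPKM in sham replicates 1 to 3. All FDG-decreased libraries lay below sham replicate 1 and above the other sham libraries. The ratio of mean levels was 1.47, and 4.48 without sham replicate 1. Tm4sf5, at 188, 205 and 179 FPKM in FDG-decreased libraries, lay in the same place, with a ratio of 0.865, and 2.57 without sham replicate 1. The mean log2 differences were 1.34 for Tm4sf4 and 0.44 for Tm4sf5, so over all libraries the direction for Tm4sf5 depends on the scale. Tm4sf20 had a ratio of 1.62, and 1.90 without that library, and exceeded sham in 8 of the 9 possible pairings, which reuse the same libraries. Tm4sf1 had a ratio of 1.14, and 0.955 without sham replicate 1. The sum of FPKM was 475536 to 827636 in FDG-decreased libraries before the factor, and 465697 to 569504 in sham libraries. These ratios were not adjusted for that.

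With the FDG-increased library found in the RYGB table alone added on the same scale, Tm4sf4 was at 163 FPKM there, above the 63.7 to 102.4 FPKM of the other FDG-increased libraries. Tm4sf5 was at 75.6 FPKM in that library, at the low end of 75.6 to 110.7 FPKM in the others. Over all 4 distinct libraries Tm4sf4 averaged 99.2 ± 46.1 FPKM and Tm4sf5 87.6 ± 16.5 FPKM (SD, n = 4 each). Tm4sf20 averaged 246 ± 115.7 FPKM and Tm4sf1 5.73 ± 3.76 FPKM over the same libraries (SD, n = 4 each).

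The tetraspanins, the larger family that L6 proteins resemble, showed no call. Of 29 listed genes 21 were measured, and limma called 0 in either table, and 0 in the RYGB table with the block. At an unadjusted p under 0.05 limma had 0 in the RYGB table, 3 there with the block and 1 in the sham table. In FDG-decreased against FDG-increased ileum 9 were higher and 12 lower, with a median log2 difference of -0.03, beside 0.02 for all genes. Tspan8, the most abundant, stood at 1781 ± 1127 FPKM in FDG-decreased and 1635 ± 865 FPKM in FDG-increased ileum (SD, n = 3 each), and Cd63, of endosomes and lysosomes, at 171.4 ± 57.3 and 214 ± 86.3 FPKM in the same order of groups (SD, n = 3 each). In FDG-increased against sham ileum 15 were higher and 6 lower, with a median of 0.35, beside 0.13 for all genes. Tspan3 stood there at 262 ± 99.1 FPKM in FDG-increased and 151.7 ± 21.8 FPKM in sham ileum (SD, n = 3 each). Cd151 and Tspan4 were listed at 0 throughout.

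Genes whose proteins are reported to bind or act with L6 proteins showed no call either. All 13 were measured, with 0 called by limma in either table, and 0 in the RYGB table with the block. The only one at an unadjusted p under 0.05 in these limma fits was 1 gene in the RYGB table with the block. The median log2 difference was -0.03 in FDG-decreased against FDG-increased ileum and 0.11 in FDG-increased against sham ileum. Itgb1, an integrin subunit, stood at 234 ± 153 FPKM in FDG-decreased and 263 ± 125.6 FPKM in FDG-increased ileum (SD, n = 3 each). Stat3, a transcription factor activated by cytokine receptors, stood at 41.7 ± 2.61 FPKM in FDG-decreased and 50.04 ± 6.58 FPKM in FDG-increased ileum (SD, n = 3 each), and Prkca, a protein kinase C, at 49.0 ± 11.8 and 49.4 ± 12.3 FPKM in the same order of groups (SD, n = 3 each).

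The genes with the most alike profiles were sought among 10651 genes. The measure was the root mean square difference between log2 profiles, each centred on its mean over the 6 libraries of a table, taking the larger value of the 2 tables. For Tm4sf5 the closest were Mdh2, the mitochondrial malate dehydrogenase, at 0.35, Amacr, a racemase of branched fatty acid breakdown, at 0.37, and Ces2a, a carboxylesterase, at 0.38. For Tm4sf4 they were Mdh2 at 0.46, Tm4sf5 itself at 0.47 and Anxa13, an annexin of gut epithelium, at 0.47. Mdh2 stood at 312, 266 and 401 FPKM in FDG-decreased against 175, 186 and 211 FPKM in FDG-increased replicates 1 to 3, and at 988 FPKM in sham replicate 1. Tm4sf4 was number 8 in the list of Tm4sf5, while Tm4sf20 was number 6222 and Tm4sf1 number 9839.

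Tm4sf20 and Tm4sf1 had closer matches, but also varied less themselves, so distances are not comparable between members. Their own root mean square deviations in the RYGB and sham tables were 0.45 and 0.59 for Tm4sf20 and 0.58 and 0.58 for Tm4sf1. They were 0.77 and 1.16 for Tm4sf4 and 0.63 and 1.00 for Tm4sf5. The nearest to Tm4sf20 were Atp6v1d, a subunit of the proton pump of lysosomes, at 0.11, and Mall, a membrane protein of the MAL family, and Chp1, a calcium-binding protein, at 0.14 each. Mall stood at 149, 236 and 101.1 FPKM in FDG-decreased against 161, 258 and 113.4 FPKM in FDG-increased replicates 1 to 3. It repeated the high replicate 2 of Tm4sf20, which was also the library with the highest sum of FPKM in each RYGB group. For Tm4sf1 they were Casc4 at 0.12, Strn3, a scaffold of a phosphatase complex, at 0.14 and Tra2b, a splicing factor, at 0.15.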

How the data were processed

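Total RNA of 9 ileum samples was measured, per the labels' protocols from a stranded kit with ribosomal depletion. The authors deposited FPKM for each gene and library, scaled for each table on its own. The submitters' processing notes name STAR 2.6.0a, Cufflinks 2.2.1, Cuffdiff, DESeq2 1.24.0 and bcl2fastq 1.8.4, and list the build hg19, although the symbols are of rat; settings are not given in the sources used here. Each table has 17145 rows, of which 25 symbols that had become dates were left out; 0 columns of samples were unused. Low values gathered at no common step, so whole reads could not be recovered and no counting interval is given.

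Genes averaging 1 FPKM or more in a table (10739 and 10801) were tested on the log2(FPKM + 1) scale with limma 3.58.1 in R 4.3.3 (intensity trend, robust variances, Benjamini-Hochberg, threshold 0.05). The fit without the block was tried on simulated libraries without pairs, with the same SD for all genes. For the RYGB comparison it called 16 of 100 genes with a true log2 difference of 1 and 89 of 100 with 2. It also called 11 unchanged genes. The fit with the block was not tried on simulated data. Same-numbered libraries of the RYGB table correlated in their deviations from group means at 0.85, 0.76 and 0.77, so its numbers are taken as pairs, from the labels, where what a number stands for is not said. Pairs 1 and 2 were each run in a single lane, so pair and lane cannot be told apart there. Sham table FDG-increased columns were used as group members only, since their numbers do not match the other table. Members, gene lists and motifs were chosen with earlier results of these data known. Other genes were named if called, or among the 3 of highest level, in the lists of tetraspanins, L6 relatives and reported partners, or if among the 3 most alike to a member; Lct, Gata4, Fabp6 and Slc10a2 mark regions. Other genes of the marker lists and genes listed at 0 were named after their values were seen. All 4 symbols were found in the RefSeq gene table of the rat and 3, all but Tm4sf20, in its promoter table. Alternatives were another pseudocount, no filter, 2 other scalings, plain limma, the replicate block, single lanes and leaving out each library.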

Additional observations from a re-analysis of the deposited data

How the results depend on the processing

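Of the members, Tm4sf4 and Tm4sf5 in the RYGB table kept their direction in all settings tried, as groups that do not overlap must when a library is left out, and their call came with the replicate block alone, at 1.32 and 1.25 on the log2 scale. With the block and without pair 1, 2 or 3, Tm4sf5 was called at 1.22, 1.27 and 1.25, and Tm4sf4 was called only without pair 3, at 1.52. The calls with a pair left out lean on the variance pooled over all genes, so they do not show that a call persists. The genes called in that table were 122 with the block, and 35, 415 and 346 with the block without pair 1, 2 or 3, against 0 without it; leaving out single libraries gave 0 to 1. Leaving out each library gave log2 differences of 1.01 to 1.64 for Tm4sf4, 1.19 to 1.32 for Tm4sf5, -0.48 to 0.12 for Tm4sf20 and -0.69 to 0.011 for Tm4sf1; Tm4sf20 turned to 0.061 without FDG-decreased replicate 3 and to 0.12 without FDG-increased replicate 2, which also turned Tm4sf1 to 0.011. In the sham table the same ranges were -1.35 to 0.58 for Tm4sf4, -1.21 to 0.30 for Tm4sf5, 0.23 to 1.03 for Tm4sf20 and -0.091 to 0.67 for Tm4sf1, with Tm4sf4 and Tm4sf5 turned without sham replicate 1 and lowest without sham replicate 3. With lane 7 alone, Tm4sf1 was -0.14 and Tm4sf20 -0.19 by the column names, and Tm4sf1 -0.040 when lane 7 is assigned by the shared library, a choice made after seeing the data. Genes called there, 4 as reported, were 1 with a pseudocount of 0.1 or a common median, 0 with no filter or quantile normalization (limma, with 1055 and 812 at an unadjusted p under 0.05), 39 with the replicate block, whose numbers do not pair that table (correlations 0.35, -0.50 and -0.25), and 0 to 13 without single libraries: 0 without FDG-increased columns 1 or 2 or sham replicate 2, 1 without sham replicate 1, 7 without sham replicate 3 and 13 without FDG-increased column 3. For FDG-decreased against sham ileum, leaving out each library gave 0.42 to 2.35 for Tm4sf4, -0.14 to 1.37 for Tm4sf5, 0.34 to 0.88 for Tm4sf20 and -0.16 to 0.42 for Tm4sf1. No other member's call changed with the block. Of the listed genes, Pyy, a hormone of gut endocrine cells and outside the naming rule, was also called by limma with the block in the sham table (adjusted p 0.0488, against 0.268 without it). The cause was not tested for any of these changes. FPKM without counts leave the precision of single values unknown, which bears most on Tm4sf1.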

Other observations

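Tm4sf1 and Tm4sf4 are neighbours on chromosome 2 in the RefSeq map (GRCr8), with no protein-coding gene listed between them, and lay apart in level and direction. The next gene beyond Tm4sf4 is Wwtr1, a transcriptional coactivator of the Hippo pathway, looked up by its position after the values of the members were known. Wwtr1 stood at 11.1 ± 1.63 FPKM in FDG-decreased and 13.6 ± 2.05 FPKM in FDG-increased ileum (SD, n = 3 each). Its log2 difference was -0.27 (SE 0.25), against 1.32 for Tm4sf4 and -0.41 for Tm4sf1. Beside Tm4sf5 on chromosome 10 lie Zmynd15, at 2.48 ± 1.38 FPKM in FDG-decreased and 2.97 ± 1.43 FPKM in FDG-increased ileum, and Vmo1, at 0.108 ± 0.0961 and 0.377 ± 0.140 FPKM in the same order of groups (SD, n = 3 each). The higher levels of Tm4sf4 and Tm4sf5 in FDG-decreased ileum were thus not seen in these neighbours; no test was run.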
